A study of Mus musculus with 2 samples.

Results

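The clustered protocadherins are 57 of the 21938 protein-coding genes of GENCODE release M21 on the mouse genome build mm10, chosen by symbol alone (Pcdha or Pcdhac, Pcdhb, and Pcdhga, Pcdhgb or Pcdhgc, each followed by a number). They comprised 14 α, 22 β and 21 γ genes, all on the plus strand of chromosome 18, from the 5′ end of Pcdha1 at position 36930184 to the 3′ end of the γ cluster at position 37841873. GENCODE gives the symbol Pcdha11 to 2 neighbouring genes, which were kept apart by their identifiers. Pcdhgb8, a polymorphic pseudogene in this annotation, was not a member.

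The data were DNase-seq of whole kidney from 36-day-old female mice of the strain B6CASTF1/J, an F1 cross of C57BL/6J and CAST/EiJ, in which the enzyme DNase I cuts accessible chromatin. There were 2 libraries, biological replicates 1 and 2, in 1 group, with no genetic change, treatment or control tissue. The labels number the females separately but give both the same donor entry, and the deposited files do not separate the parental alleles. With 1 group of 2 libraries no test between groups was possible, and every value is given per library.

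Clustered protocadherins are cadherin-like adhesion proteins, best known from neurons, where each cell chooses a few of the genes and the resulting combination marks its surface for self-recognition. In the α and γ clusters each gene begins with its own promoter and a large variable exon encoding the extracellular, transmembrane and proximal cytoplasmic parts, and splicing joins that exon to constant exons shared by the whole cluster. β genes consist of a variable exon alone. Most of the promoters carry a conserved element with the core CGCT, many are bound by CTCF and cohesin, and DNA methylation keeps the genes that a cell has not chosen silent. The C-type genes at the ends of the α and γ clusters are regulated apart from the others and are expressed more uniformly.

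In these kidneys most members of the family had no strict promoter peak, and most of those that did were γ genes. A gene was counted as having a promoter peak when a strict peak, one from the smaller of the authors' 2 peak sets, overlapped the 1 kb on either side of any annotated start. In replicate 1 this held for 11 of 57 members (19.3%), against 66.9% of all protein-coding genes. In replicate 2 it held for 3 of 57 (5.26%), against 60.9% of all genes. The same 3 members, Pcdhgc3, Pcdhga12 and Pcdhgb4, had a peak in both libraries, against 60.7% of all genes, and 46 members had none in either. Lack of a peak in a bulk tissue does not tell apart a promoter that is closed in all cells from one open in too few cells to be called.

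The 2 libraries were of unequal yield. Replicate 1 had 124504 strict peaks and replicate 2 had 68056, and 96.3% of the replicate 2 peaks overlapped one of replicate 1. Read totals were not given in the sources used here, so the depth behind each peak is unknown. All 8 tubule marker genes, among them Lrp2 and Umod, had a promoter peak in both libraries, as did 4 of 4 endothelial, 3 of 4 stromal and 2 of 4 podocyte markers. None of the 4 immune markers had one in either library. Among markers of neurons, the cells in which clustered protocadherins are best known, 2 of 6 genes (Snap25 and Rbfox3) had a peak in both. Syt1 had one of 0.334 in replicate 1 alone, and Stmn2, Neurod6 and Slc32a1 had none. Over all protein-coding genes the share with a promoter peak in both libraries was 60.7%.

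**Figure D1:**
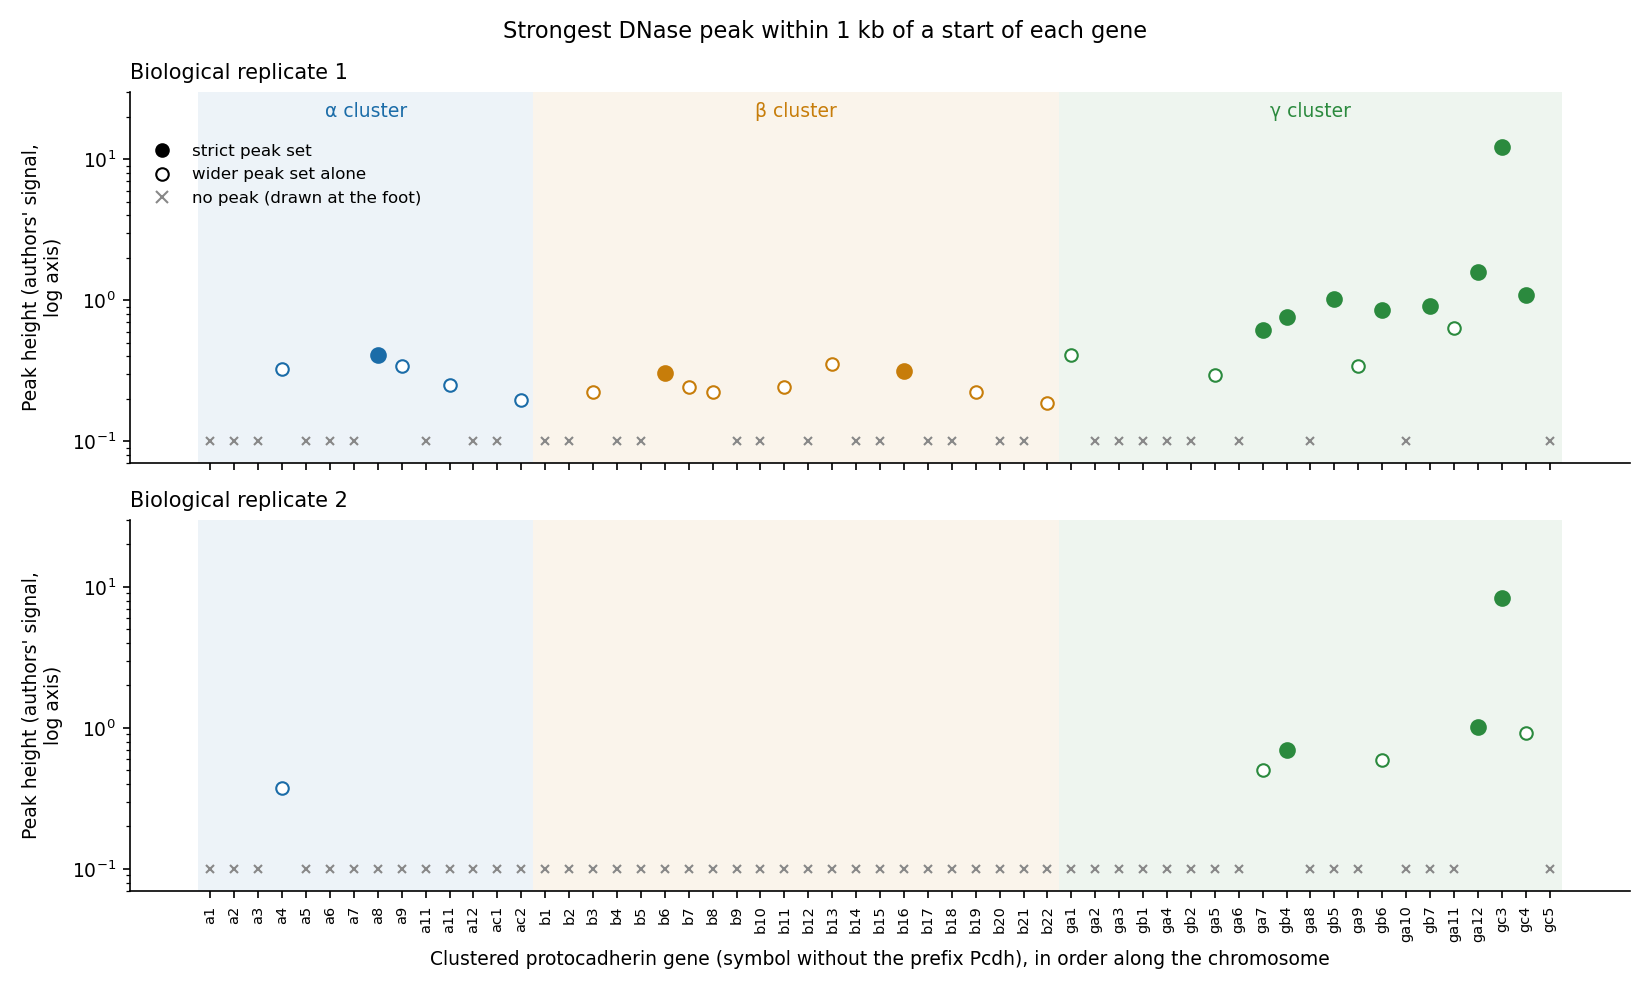
Height of the strongest peak within 1 kb of a start of each clustered protocadherin (log axis, in the authors' signal units), in order along the chromosome, with replicate 1 above and replicate 2 below. Filled points are strict peaks, open points are peaks of the wider set alone, and crosses at the foot mark genes with no peak. The 2 places labelled a11 are the 2 genes with the symbol Pcdha11. Pcdhgc3 stands at 12.2 and 8.31, and no other member exceeds 1.60.

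Pcdhgc3, a C-type γ gene whose product binds Axin1 and restrains Wnt signalling, was the one member with a tall promoter peak. Peak height, the authors' signal value on a scale they do not state, was 12.2 in replicate 1 and 8.31 in replicate 2. Both libraries placed the peak at exactly the same interval, chr18:37806201-37806420 (mm10), with its middle 54 bp upstream of the nearest annotated start. Among the strongest promoter peaks of all genes that had one, it ranked at percentile 71.0 in replicate 1 and 67.7 in replicate 2. It was therefore somewhat above an ordinary open promoter of these kidneys, whose median height was 7.34 and 5.35. Relative to the next member, Pcdhga12, it was 7.62 times as high in replicate 1 and 8.16 times in replicate 2. An exon of the antisense gene BC037039 also covers the peak, but the peak was not within 1 kb of a start of that gene, whose own promoter peak was 1.27 in replicate 1.

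The Pcdhgc3 promoter also held more footprints than any other member in each library, footprints being short stretches protected from cutting within accessible chromatin. There were 8 footprints within 1 kb of its starts in replicate 1 and 7 in replicate 2. Of these, 3 in replicate 1 overlapped 4 in replicate 2. The widest, 27 bp in replicate 1 and 25 bp in replicate 2, lay from 152 to 126 bp and from 151 to 127 bp upstream of the 5′ end of the gene. Another spanned 3 to 25 bp downstream of the 5′ end in replicate 1, and in replicate 2 the same stretch was covered by a pair of footprints from 2 to 12 bp and from 14 to 24 bp. The lowest false discovery rate that the authors' cut-rate files list at this promoter was 2.91e-46 in replicate 1 and 7.47e-30 in replicate 2, the lowest of all members in each library.

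Pcdhga12, the last of the γA genes, had the second highest promoter peak. Its height was 1.60 in replicate 1 and 1.02 in replicate 2, at percentiles 13.8 and 7.28 among the promoter peaks of all genes. The peak occupied chr18:37765801-37765980 in replicate 1 and chr18:37765825-37765958 in replicate 2. It lay inside the variable exon, with its middle 117 and 118 bp downstream of the nearest annotated start. One footprint was common to both libraries, at 316 to 322 bp from the 5′ end of the gene in replicate 1 and 310 to 322 bp in replicate 2.

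Pcdhgb4, a γB gene, completed the members with a peak in both libraries. Its height was 0.761 in replicate 1 and 0.703 in replicate 2, at percentiles 5.38 and 2.67. A footprint across the 5′ end itself was found in both, from 10 bp upstream to 13 bp downstream in replicate 1 and from 9 bp upstream to 8 bp downstream in replicate 2. The height in replicate 2 was 0.683 times that in replicate 1 at Pcdhgc3, 0.638 times at Pcdhga12 and 0.924 times at Pcdhgb4. All 3 were lower in replicate 2, and their median ratio of 0.683 stood beside 0.677 over all genes with a promoter peak in both libraries.

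The other 8 promoter peaks were found in replicate 1 alone, and 5 of them belonged to γ genes. Pcdhgc4, a C-type gene needed for the survival of neurons, had a height of 1.09, with the peak 515 bp downstream of its nearest start in the variable exon. Pcdhgb5 followed with 1.02, Pcdhgb7 with 0.909 and Pcdhgb6 with 0.854, each with the middle of the peak within 200 bp of a start. Pcdhga7 had the lowest γ height, 0.612. In replicate 2 the cut-rate files still listed an interval below the false discovery rate of 0.05 at Pcdhga7 (lowest 0.00786), Pcdhgc4 (0.0121) and Pcdhgb6 (0.0163). None was listed at Pcdhgb5 or Pcdhgb7, although Pcdhgb5 had a rate as low as 1.01e-08 and 3 footprints in replicate 1. Of the members with a strict peak in replicate 1 alone, Pcdhgb5 had the lowest rate there. The part of the lower yield of replicate 2 in these differences was not tested.

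Along the γ cluster the strict peaks began at Pcdhga7. The 8 γ genes before it, Pcdhga1 to Pcdhga6 with Pcdhgb1 and Pcdhgb2, had no strict peak in either library. Of the 13 from Pcdhga7 on, 8 had one in replicate 1 and 3 in replicate 2. By type, 4 of the 4 γB genes in that stretch had a peak in replicate 1, against 2 of 6 γA genes and 2 of 3 C-type genes. The division at Pcdhga7 was chosen after the values were seen and is a description only. Between Pcdhga7 and Pcdhgc4 the members without a strict peak were Pcdhga8, Pcdhga9, Pcdhga10 and Pcdhga11, all γA genes. The pseudogene Pcdhgb8 lies in the same stretch and had a peak of 0.882 in replicate 1, 148 bp upstream of its start. Pcdhgc5, the last variable gene, had no peak within 1 kb of its start, although one of 2.27 and 1.50 lay 2999 bp downstream of it in both libraries.

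In the α cluster, whose members share a cytoplasmic domain that recruits focal adhesion kinases, 1 of 14 genes had a strict peak in replicate 1 and none in replicate 2. That gene was Pcdha8, with a height of 0.408, percentile 1.17 among promoter peaks. The C-type genes Pcdhac1 and Pcdhac2, of which Pcdhac2 is required for the spacing of serotonergic axons, had none in either library. In the β cluster 2 of 22 genes had a strict peak, both in replicate 1 alone, and these were the lowest of the family. Pcdhb16 reached 0.315 and Pcdhb6 reached 0.306, at percentiles 0.419 and 0.334.

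The larger of the authors' peak sets, called the wider set, raised the counts to 26 members in replicate 1 and 7 in replicate 2. The wider set was not counted over all genes for each library alone. The 7 were found in both libraries (12.3%, against 64.9% of all genes). They were Pcdha4, Pcdhga7, Pcdhgb4, Pcdhgb6, Pcdhga12, Pcdhgc3 and Pcdhgc4, so that no β gene was among them. All 9 β genes of the wider set in replicate 1 were low, from 0.186 at Pcdhb22 to 0.353 at Pcdhb13. Their middles lay between 177 and 22 bp upstream of the nearest start, at the place of a promoter. With the wider set Pcdhga11 reached 0.631 in replicate 1 and Pcdhga1, the first γ gene, 0.408. In α, 5 genes had a peak of the wider set in replicate 1, at a median of 539 bp downstream of the start. Pcdha9 and the downstream one of the 2 genes named Pcdha11 had theirs just before the start, and Pcdha4, Pcdha8 and Pcdhac2 had theirs inside the variable exon. In 28 members neither library had any interval listed below a false discovery rate of 0.05 within 1 kb of a start. The same share was not computed over all genes.

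Footprints were likewise found mainly in γ. In replicate 1, 18 members had a footprint within 1 kb of a start and in replicate 2, 5 did, the same 5 in both (8.77%, against 62.1% of all genes). These were Pcdhgc3, Pcdhgb4, Pcdhga12, Pcdhga7 and Pcdhgb6, all γ genes. In 4 of these 5 a footprint of replicate 1 overlapped one of replicate 2 over at least 50% of the shorter. The share of all genes was not computed for each library alone. The γ cluster held 32 of the 39 member footprints of replicate 1 and all 12 of replicate 2. Pcdhgc4 had 5 footprints in replicate 1 and none in replicate 2. Pcdhgb6 and Pcdhgb7 had 4 each in replicate 1, with 1 and none in replicate 2.

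In CpG ratio the members resembled the average gene, but their GC content was lower, with a median of 44.9% against 54.7% over all genes. The deciles below are of the CpG ratio alone and do not match genes on GC content. The CpG ratio, the number of CpG dinucleotides over that expected from base composition in the 1001 bp centred on the 5′ end, had a median of 0.564 over the members and 0.552 over all genes. Among all genes the share with a promoter peak in both libraries rose with this ratio, from 8.98% in the lowest decile to 93.9% in the highest. In the upper 5 deciles, 88.9% of all genes had a peak in both libraries, against 2 of the 29 members there. In the seventh decile alone the values were 88.1% of all genes and 1 of 14 members. The clusters differed, with medians of 0.682 in α, 0.594 in γ and 0.378 in β. Within γ the median was 0.570 before Pcdhga7 and 0.670 from Pcdhga7 on, and the part of this difference in the peaks was not tested. Members with a peak in both libraries ranged from 0.318 at Pcdhga12 to 0.797 at Pcdhgc3. The second tallest peak thus stood at the promoter with the lowest ratio of these 3.

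**Figure D2:**
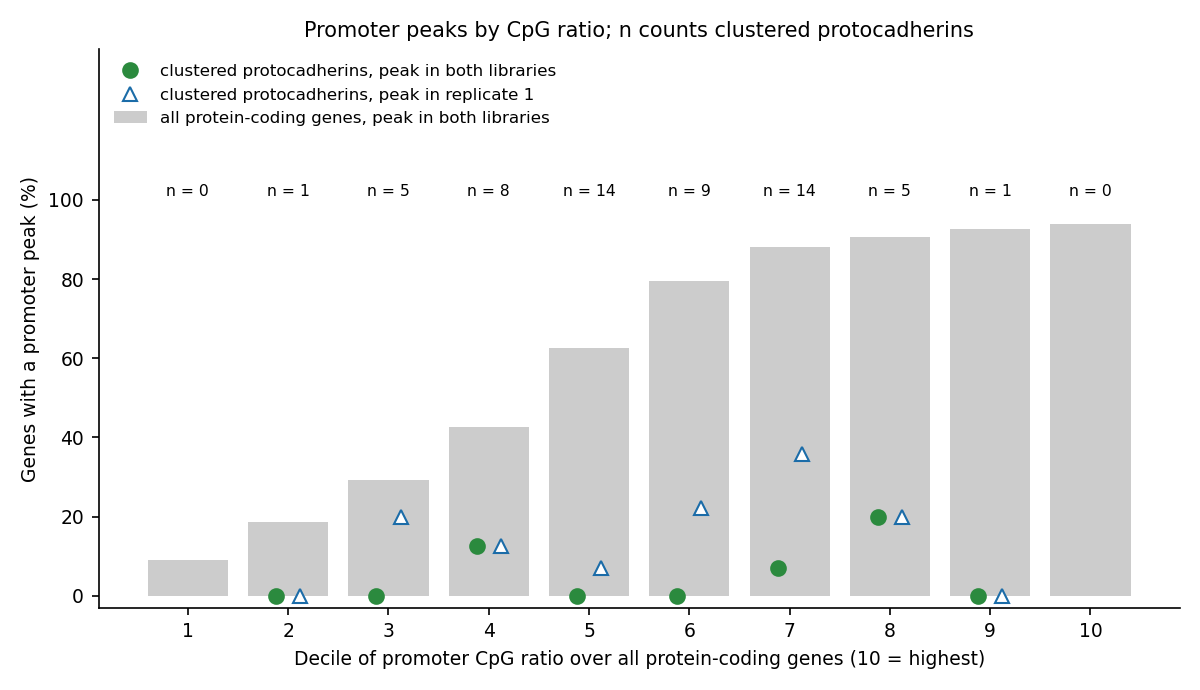
Share of genes with a promoter peak (percent) by decile of promoter CpG ratio over all protein-coding genes. Bars are all genes with a peak in both libraries, green circles the clustered protocadherins with a peak in both, open triangles those with a peak in replicate 1, and n the number of clustered protocadherins in the decile. In the seventh decile the bar stands at 88.1% and 1 of 14 members had a peak in both.

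Where promoters of neighbouring members share sequence, reads that match in several places can be lost. The share of 31-base words that occur once in the genome was therefore computed over the 1 kb on either side of each 5′ end. Its median was 93.4% over the members (range 73.2% to 100%) and 98.3% over all genes. By cluster the medians were 88.7% in α, 99.5% in β and 97.5% in γ. Members without any strict peak had a median of 95.4% and those with a peak in replicate 1 alone 88.9%. Of the 46 members with no strict peak, 23 had a share over 95% and 14 of 100%. Pcdhgb4, with a peak in both libraries, had 80.8%. The part of repeated sequence in the missing peaks was not tested.

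Consensus matches were searched on both strands and are descriptions of sequence, not binding sites. The core CGCT occurred in 55 of 57 member windows of 300 bases, from 250 before to 50 after the 5′ end (96.5%), against 67.2% of all protein-coding genes. An exact match to the CTCF consensus occurred within 1 kb of the 5′ end in 6 members (10.5%), against 1.26% of all genes. With 1 mismatch allowed the shares were 17.5% and 13.6%. No member window held an exact match to the consensus of REST, a repressor of neuronal genes (0.670% of all genes), or of the kidney factors HNF1 (0.109%) and HNF4A (1.03%).

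All 6 exact CTCF matches lay inside variable exons of α genes, at nearly the same place. They were in Pcdha1, Pcdha4, Pcdha6, Pcdha7, Pcdha8 and Pcdha12 and began 537 to 581 bp downstream of the 5′ end. These exons are similar in sequence, so the matches are not independent of each other. The one strict α peak, at Pcdha8, covered its match at chr18:36992923-36992935, and the other 5 matches lay in no strict peak. In the wider set, Pcdha4 had a peak over its own match in both libraries, of height 0.325 in replicate 1 and 0.377 in replicate 2. Its middle was 562 and 548 bp downstream of the nearest start. No match in a variable exon overlapped a footprint in either library. The weak accessibility of Pcdha4 and Pcdha8 was thus recorded over the exonic CTCF match and not at the start.

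**Figure D3:**
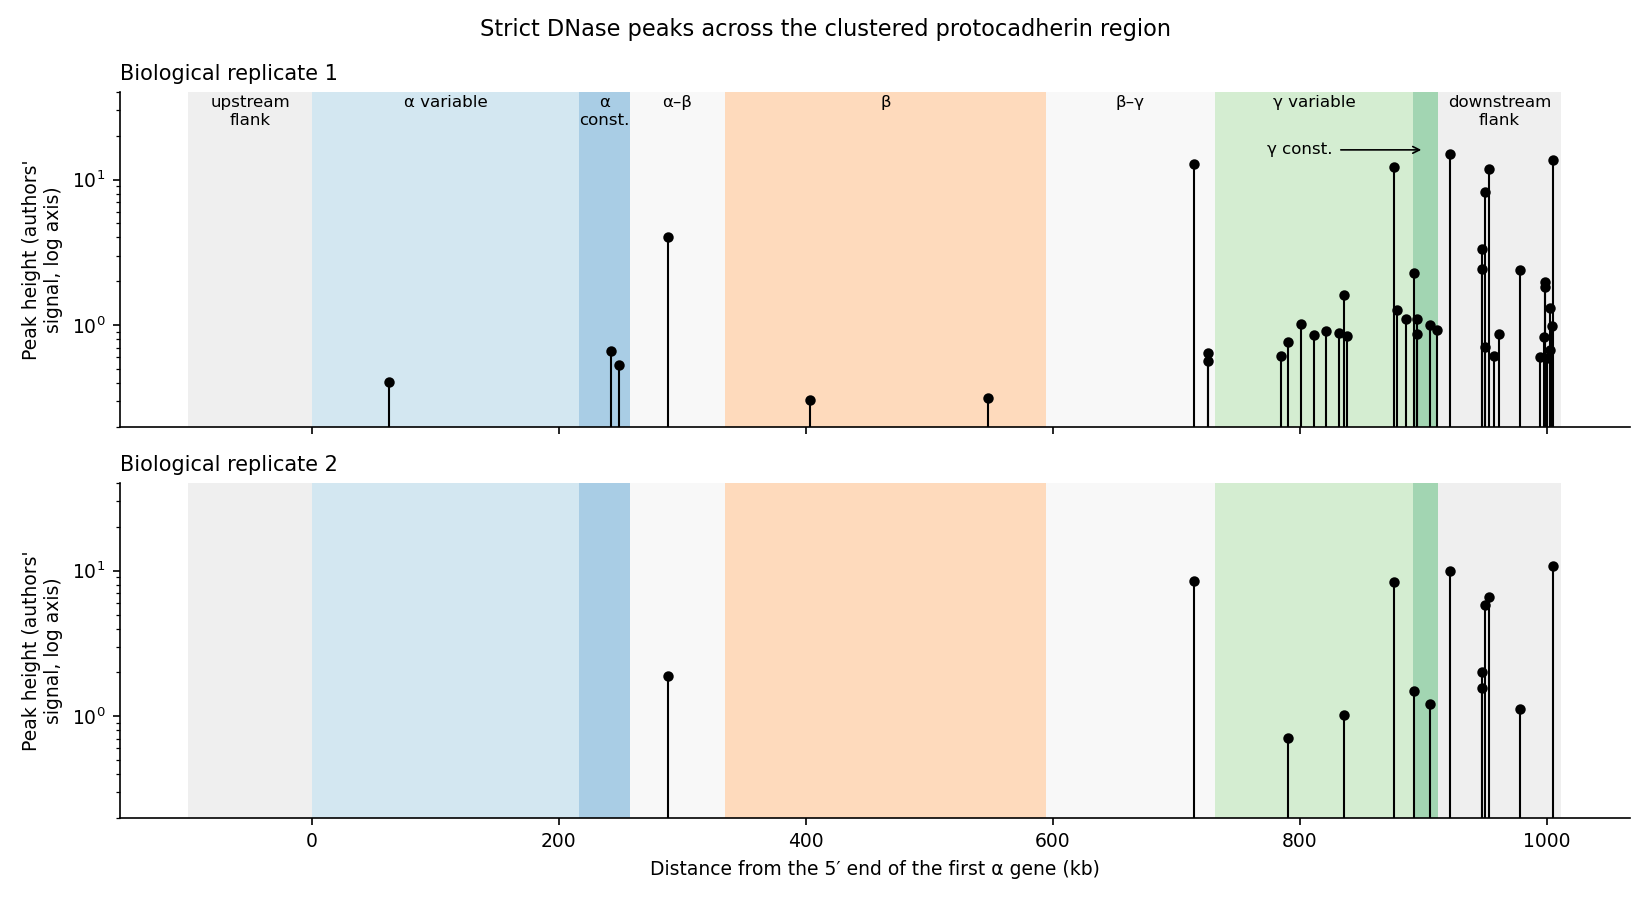
Strict peaks across the clusters and 100 kb on either side, by distance from the 5′ end of Pcdha1 (kb) and height (log axis, authors' signal units), with replicate 1 above and replicate 2 below. Shading marks the stretches of the variable and constant exons of the α and γ clusters, introns included. It also marks the β cluster, the intervals between clusters and the flanks. Tall peaks stand in the α–β interval, at Taf7, at Pcdhgc3 and beyond the γ cluster, and the upstream flank has none.

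Counted with the promoter peaks already described, strict peaks were scarce in the α and β clusters and more frequent from the γ cluster onward. From the first to the last member there were 25 strict peaks in replicate 1 and 7 in replicate 2, or 2.74 and 0.768 per 100 kb. Chromosome 18 as a whole had 4.36 and 2.29, and all 21 chromosomes had 4.57 and 2.50. The β cluster, over 259542 bp, had 2 peaks in replicate 1 and none in replicate 2. Stretches named after variable or constant exons include the introns and promoters among them. The stretch of the α variable exons had 1 and none. By contrast the γ variable exons had 11 and 3, or 6.86 and 1.87 per 100 kb. This was above chromosome 18 and all chromosomes in replicate 1 but below both in replicate 2. The stretch of the γ constant exons, over 19739 bp, had 5 and 2, or 25.3 and 10.1 per 100 kb. The γ constant exons themselves span 59, 89 and 1971 bp, and both peaks of replicate 2 in this stretch lay outside them. Upstream of Pcdha1 no peak and no footprint was found in 100 kb in either library. In the 100 kb downstream of the γ cluster there were 18 and 7 peaks.

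Footprints followed the same division. The α variable exons held 3 in replicate 1 and none in replicate 2, and the β cluster 4 and none. The γ variable exons held 35 and 14, or 21.8 and 8.73 per 100 kb, against 13.8 and 8.21 over all chromosomes. The downstream flank held 63 and 34. In the whole region, flanks included, there were 144 footprints in replicate 1 and 63 in replicate 2. Of those of replicate 1, 42 overlapped one of replicate 2 over at least 50% of the shorter.

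**Figure D4:**
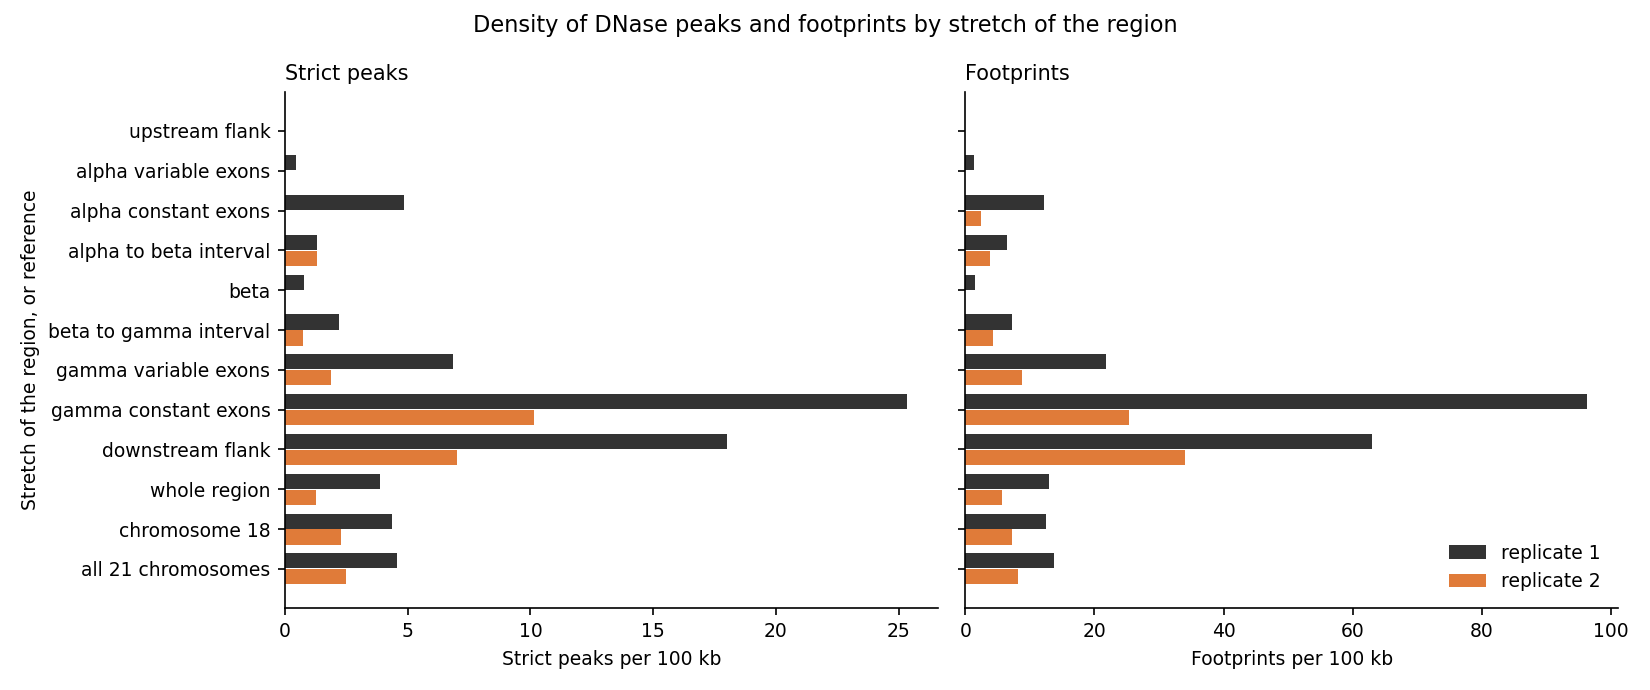
Strict peaks (left) and footprints (right) per 100 kb in each stretch of the region, in the whole region, on chromosome 18 and over all 21 chromosomes, for replicate 1 (black) and replicate 2 (orange). The stretch of the α variable exons and the β cluster have no replicate 2 bar. The stretch of the γ constant exons, introns included, and the downstream flank have the longest.

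Known enhancers of the α genes lie among the α constant exons and between the α and β clusters, and a control region of the β and γ genes lies beyond the γ cluster. Their coordinates were not used here, so no peak is named after them. In the intron before the last α constant exon, replicate 1 had a strict peak at chr18:37172301-37172500 (0.659) and another at chr18:37178481-37178640 (0.529). Replicate 2 had peaks of the wider set there, of 0.326 and 0.418. The middles of the 2 strict peaks lay 164 and 38 bp from the starts of the noncoding genes Gm38097 and Gm10544, in that order. The α–β interval had 1 strict peak, at chr18:37218301-37218460 in replicate 1 and chr18:37218281-37218460 in replicate 2, 30640 bp past the end of the α cluster. It reached 4.03 in replicate 1 and 1.89 in replicate 2, and it held a CTCF match with 1 mismatch that was footprinted in both libraries. This peak was taller in each library than the promoter peak of any member but Pcdhgc3.

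Between the β and γ clusters the tallest peak was the promoter of Taf7, a subunit of the general transcription factor TFIID, with 12.7 and 8.53. The other coding gene there, Slc25a2, a mitochondrial ornithine transporter, had none in either library. The noncoding gene 3222401L13Rik, just before Pcdhga1, had a promoter peak of 0.640 in replicate 1. So genes with a peak in both libraries and genes with none were neighbours within the region.

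Among the γ constant exons, replicate 1 had a peak at chr18:37835350-37835660 (0.993) and replicate 2 one at chr18:37835641-37835743 (1.21). They overlapped by 20 bp, so they counted as shared at an overlap of 1 base but not at 50% of the shorter, which left 13 shared peaks in the region. The other 13 of the 14 shared peaks were lower in replicate 2. Over the 14 the median ratio of replicate 2 to replicate 1 was 0.665, beside 0.677 over promoter peaks of all genes with one in both libraries. Replicate 1 alone had a peak of 0.872 over the first γ constant exon, which replicate 2 held in the wider set with 0.968. All 14 shared peaks of the region held a footprint in each library, a count given without the same share over all shared peaks of the genome.

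Beyond the γ cluster the shared peaks lay in or at Diaph1, which encodes a formin that nucleates actin and runs toward the cluster from the far side. The first, at chr18:37852181-37852400, began 10308 bp past the last γ exon and reached 15.1 in replicate 1, the tallest of the region there, and 9.95 in replicate 2, second to the Diaph1 promoter. It held a pair of CTCF matches with 1 mismatch, each footprinted in both libraries. A second tall peak, at chr18:37883561-37883760, began 41688 bp past the γ cluster and reached 11.8 and 6.61. It held the only exact CTCF match of the region that lay in a peak and in a footprint of both libraries, out of 9 exact matches. Another, at chr18:37880241-37880440, reached 8.28 and 5.80, with no CTCF match. The Diaph1 promoter itself reached 13.5 and 10.8.

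With 1 mismatch allowed the region held 74 CTCF matches, of which 5 lay in a peak of both libraries, and all 5 were footprinted in both. They were the one of the α–β interval, 3 in introns of Diaph1 and 1 at its promoter. None lay in a variable exon or promoter of a member. Shares of CTCF matches in peaks or footprints, exact or with 1 mismatch, were not computed over the genome. All 14 shared peaks of the region held a footprint in each library, with or without a CTCF match. The one exact HNF1 match, at chr18:37928722-37928734 in an intron of Diaph1, overlapped a footprint in both libraries, with a strict peak of 1.98 in replicate 1 alone. The footprint of replicate 2 covered less than 50% of the match. The 2 REST matches of the region, both near Pcdhb11, lay in no peak.

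The nonclustered protocadherins, single genes elsewhere in the genome with their own cytoplasmic domains, were set beside the clustered ones. Of these 12 genes, 9 had a promoter peak in replicate 1 and 8 in both libraries (66.7%), near the 60.7% of all genes. Pcdh17 had the tallest, 9.81 and 8.15 in replicates 1 and 2, Pcdh10 had 5.46 and 3.44, and Pcdh1 had 4.76 and 2.48. Pcdh12, a protocadherin of endothelial cells, had 3.49 and 2.85. Pcdh15, Pcdh20 and Pcdh11x had none. Among other families that lie in clusters, 21 of 39 Hox genes and 6 of 49 keratin genes had a promoter peak in both libraries. The clustered protocadherins, with 3 of 57, were thus nearer in share to the keratin genes, and no test of these differences was run.

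Of 28 genes that act on or with the clustered protocadherins, all 28 had a promoter peak in replicate 1, against 66.9% of all genes, and 26 in both libraries, against 60.7%. The highest of the list included subunits of cohesin, which brings promoters and enhancers of the clusters together. Smc3 had 21.3 and 15.5, Stag1 had 17.0 and 17.3, and Rad21 had 16.6 and 14.1, while the cohesin subunits Smc1a, with 9.52 and 7.41, and Stag2, with 6.39 and 5.57, were lower. Adam10, the protease that sheds the extracellular part, had 18.4 and 17.7. Ctcf had 6.51 and 4.23, and Smchd1, a silencer of the clusters, had 11.4 and 8.18. The exceptions were Dnmt3b, the methyltransferase that marks the variable promoters, with 2.02 in replicate 1 alone, and Ret, a receptor kinase that associates with protocadherins, with 0.510 in replicate 1 alone.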

How the data were processed

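Per the labels, DNase-seq libraries were made from kidney of 2 females, and files are on mm10. Per the deposited listing, the authors derived peaks, footprints and false discovery rates separately for each library from its filtered alignment. Neither aligner nor caller is given in the sources used here. Height is the signal value of a peak in the deposited files, on an unstated scale. Every row of the deposited footprint files holds 0.01, taken as a p-value threshold, and the deposited cut-rate files hold false discovery rates below 0.05, of the kind of a q-value. The strict set of each library is the deposited peak file with fewer rows.

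The members, lists and motifs were chosen with earlier results of these data known. Promoters span 1000 bp on each side of every annotated start (GENCODE M21). A peak belongs to the stretch that holds its middle, and an overlap of 1 base made peaks shared. All members were named by rule, with genes starting in the region and nonclustered protocadherins. Of the pathway list the rule named the highest 4 and those without a peak in both libraries. Ctcf and Smchd1, added for their role, and the cohesin subunits Smc1a and Stag2 were outside the rule and named after their values were seen. Markers were named from written lists, of which 1 is not reported here. Python 3.11.15, pandas 2.3.3, numpy 2.4.6 and numba 0.67.0 were used, and the scripts were tested on simulated data with planted peaks. Alternatives changed the window, peak set, start sites, overlap, flank, mismatches and libraries.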

Additional observations from a re-analysis of the deposited data

How the results depend on the processing

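Across the counts of members, region peaks, footprints and CTCF matches, and the median heights, 86 comparisons with an alternative were made. Of these, 60 stayed close to the values given above and 26 moved. Reversal was not assessed. Leaving out replicate 1 could not move the member counts, since every member with a peak in replicate 2 also had one in replicate 1. It likewise left member footprints, region peaks and CTCF matches unchanged, since all those of replicate 2 were also in replicate 1. The α and β counts of 0 could not fall when only the stronger 50% of peaks was kept. These comparisons are among the 60. A count stayed close when it was within 1.5 times. Windows of 500 and 2500 bp, the nearest start alone, coding transcripts alone and the 5′ end of the gene alone changed no member count. Keeping the stronger 50% of peaks left 2 members in replicate 1, and 1 in replicate 2, in both libraries and in γ. The wider set gave 26 in replicate 1, 7 in replicate 2 and in both, 1 in α, 6 in γ, 2 of C-type, 28 shared region peaks, and median member heights of 0.343 and 0.703 in replicates 1 and 2 in place of 0.854 and 1.02. Without flanks the region had 7 shared peaks. Requiring footprints to overlap the other library left 42 of 144 in replicate 1. Allowing 1 mismatch gave 5 CTCF matches in peaks and 5 in footprints of both libraries, in place of 1 and 1.

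Counts from 1 library in place of both ranged from 3 to 11 for member peaks, 0 to 1 in α, 0 to 2 in β, 3 to 8 in γ, 1 to 2 for C-type genes, 5 to 18 for member footprints, 14 to 43 for region peaks, 1 to 3 for CTCF matches in peaks and 1 to 2 in footprints. The higher value always came from replicate 1, the library with more peaks. No paired analysis was possible because there was 1 group. The cause of these shifts was not tested, and 2 libraries of unknown depth limit the precision.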
